A study of Mus musculus with 7 samples.

Results

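Complement is a cascade of plasma and tissue proteins in which one protease cuts and activates the next. The ovary makes part of this system itself, and the present account covers 9 of its genes, namely Masp1, C1qa, C1qb, C1qc, C1ra, C1s1, C3, C4b and Serping1, of the 55487 gene rows counted in mouse ovaries. In the lectin pathway, the MASP proteases sit on sugar-binding collectins and ficolins. In the classical pathway, the C1r and C1s proteases sit on C1q, which recognizes immune complexes and dying cells. Both routes cut C4 and then C3, the protein whose fragments coat targets and attract leukocytes. The inhibitor encoded by Serping1 blocks proteases of both routes, though not every one of them.

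The genes were chosen by name from the deposited identifiers through GENCODE M21. The choice of Masp1 also rested on measured values, because the study picked it out as higher in PAMH F3 from these same libraries. The other 8 genes were set beside it with earlier results of this comparison known. Differences of the 9 genes between the groups are therefore given as descriptions. No p value is given for any of them, and the counts of calls among them stand beside the share over all genes only as a record. Tests are given for complement genes outside the set.

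All mice were C57BL/6J females whose ovaries were taken at diestrus on postnatal day 60, and 7 stranded poly(A) libraries were made from them. The 3 CNTR libraries were from mice born to dams that had received PBS injections between E16.5 and E18.5. The 4 PAMH F3 libraries were from third-generation descendants of dams injected over the same days with human recombinant AMH, anti-Müllerian hormone, at 0.12 mg/kg per day, in a line that received no further AMH. The controls were of generation 1, so that exposure of the ancestors and the number of generations of breeding cannot be told apart. Whether a library holds 1 mouse, and whether mice of a group came from separate litters, is not given in the sources used here, so that the spread between libraries may be partly technical. Genes were counted with between 32158174 and 35485021 reads per library, and the 9 genes had between 458 and 28814 reads each. Values are CPM, the count of a gene scaled to library size with TMM factors. Whole ovaries contain many cell types, and all 8 granulosa cell and all 8 oocyte markers passed the filter on low counts. So did markers of oviduct epithelium, which summed to between 2799 and 6787 CPM, and of adipocytes, which summed to between 194 and 1188 CPM. In such bulk RNA, fewer cells of a type and less RNA per cell cannot be told apart.

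Masp1 stood higher in PAMH F3 on average, and the other 8 genes stood lower on average. In a fit with 2 surrogate variables, which sva estimates to absorb variation unrelated to the groups, edgeR gave a log2 fold change of 0.56 for Masp1. It gave values between -0.55 and -0.19 for the other 8, with a median of -0.25. Over all 18779 genes tested, the median was 0.0049 and 48.3% of the genes had a negative value. At an adjusted p of at most 0.05, edgeR's quasi-likelihood test with Benjamini-Hochberg adjustment called 0 of the 9 genes, as it called 0% of all genes tested. At an unadjusted p under 0.05 it picked 2 of the 9, against 7.64% of all genes. DESeq2, given these surrogate variables, called 1 of the 9, Masp1, against 0.583% of the 17333 genes for which it gave an adjusted p. Nothing is read from these counts, because the genes were chosen with this comparison in view.

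**Figure D1:**
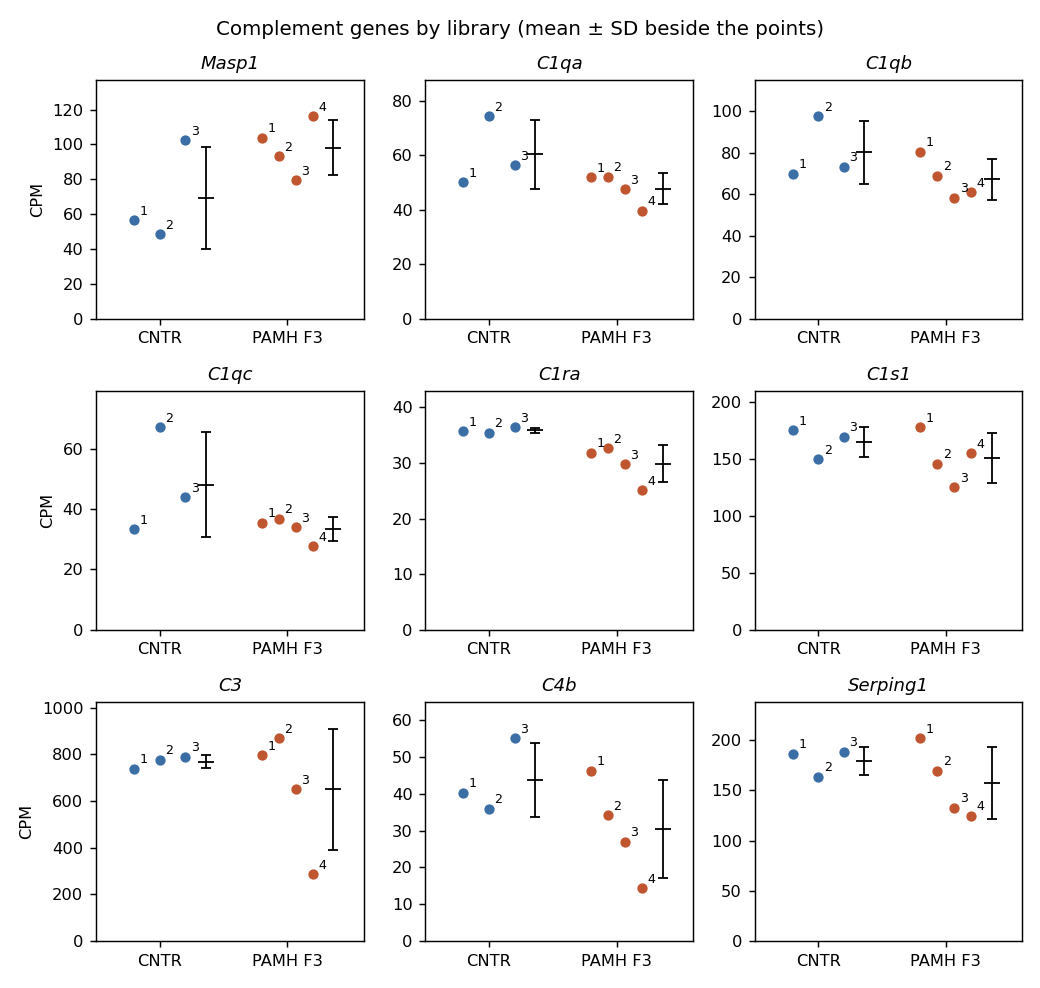
Expression of the 9 complement genes in each ovarian library, in CPM from 0, with blue points for the 3 CNTR libraries, orange points for the 4 PAMH F3 libraries, the replicate number beside each point and the mean ± SD as a bar. CNTR replicate 3 lies among the PAMH F3 libraries in Masp1, the groups are apart in C1ra only, and PAMH F3 replicate 4 is lowest of all libraries in C3 and C4b.

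Masp1 (ENSMUSG00000022887) lies on the minus strand of chromosome 16, at 23449417 to 23520815 in mm10. By alternative splicing it encodes the proteases MASP-1 and MASP-3 and the inhibitor MAp44. MASP-1 starts the lectin pathway, and MASP-3 activates factor D of the alternative pathway. The gene counts do not separate these products. Expression was 56.4, 48.6 and 103 CPM in CNTR replicates 1 to 3 and 104, 93.4, 79.5 and 116 CPM in PAMH F3 replicates 1 to 4. CNTR replicates 1 and 2 were thus low, whereas CNTR replicate 3 exceeded 2 of the 4 PAMH F3 libraries. The mean was 69.1 ± 29.1 CPM across CNTR (SD, n = 3) and 98.2 ± 15.6 CPM across PAMH F3 (SD, n = 4), a ratio of 1.42. The difference between the means was as large as the SD of the CNTR group. The fitted log2 fold change of 0.56 had a standard error of 0.08. Without surrogate variables it was 0.51 and the standard error was 0.24.

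The summed level of 8 granulosa cell markers moved with Masp1 in part of the libraries. That sum was 3441 and 3547 CPM in CNTR replicates 1 and 2, where Masp1 was lowest, and 5870 and 6001 CPM in CNTR replicate 3 and PAMH F3 replicate 4. In PAMH F3 replicates 1, 2 and 3 it was 4156, 4710 and 4149 CPM. Replicate 1 thus had the second highest Masp1 level and a granulosa sum under the mean of the 7 libraries. The 2 groups overlapped in this sum, 6 of the 8 markers had a positive fitted difference, and none of the 8 was at 0. Among them, Inhba, the activin subunit gene, had the pattern most like that of Masp1, with Pearson's r of 0.93 over the 7 libraries on log2 CPM, whereas Amh had an r of -0.92 and Foxl2 an r of -0.55. The part of granulosa cell content in the Masp1 values was not tested. Of all genes tested, the 5 with the highest r to Masp1 were Cc2d2a (0.99), Braf (0.99), Marf1 (0.98), Soat1 (0.98) and Gm42979 (0.98), and 53 genes had an r above 0.95. These are descriptions over 7 libraries that share their preparation.

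Neither of the nearest tested genes that lie clear of Masp1 on its left and right was called. The test called 0% of all genes tested, so that this does not set the neighbors apart from Masp1. St6gal1, a sialyltransferase gene that ends 89067 bases away, was at 143 ± 6.39 CPM across CNTR (SD, n = 3) and 134 ± 22.6 CPM across PAMH F3 (SD, n = 4), with an edgeR adjusted p of 0.863. Bcl6, a transcriptional repressor gene 444237 bases away on the other side, was at 36.6 ± 8.95 CPM (SD, n = 3) and 32.4 ± 2.79 CPM (SD, n = 4), with an edgeR adjusted p of 0.77. Rtp4 and Gm45338 overlap the right end of Masp1 on the opposite strand and reach past it. Rtp4, with between 458 and 715 reads per library, was at 17.6 ± 3.69 CPM across CNTR (SD, n = 3) and 18.9 ± 3.02 CPM across PAMH F3 (SD, n = 4), with an edgeR adjusted p of 0.957. Gm45338, with between 43 and 116 reads, was at 1.75 ± 0.41 CPM across CNTR (SD, n = 3) and 2.97 ± 0.63 CPM across PAMH F3 (SD, n = 4), with an edgeR adjusted p of 0.605. The strand setting of the counting step is not given in the sources used here.

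Masp2, the partner protease gene of the lectin pathway, was near the limit of detection. It was at 0.61 ± 0.26 CPM across CNTR (SD, n = 3) and 0.70 ± 0.15 CPM across PAMH F3 (SD, n = 4), with an edgeR adjusted p of 0.98. Per kilobase of merged exons, the level of Masp1 was between 20.96 and 74.3 times that of Masp2 in the 7 libraries. Of the recognition molecules of this pathway, Mbl1 and Fcnb had at most 1 read in any library and Colec10 at most 7. Mbl2 was at 2.35 to 3.82 CPM, Fcna at 1.76 to 4.82 CPM and Colec11 at 6.72 to 12.1 CPM. Their edgeR adjusted p values were 0.819, 0.908 and 0.733.

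The 3 chains of C1q are encoded side by side on the minus strand of chromosome 4, C1qa at 136895917 to 136898803, C1qc at 136889804 to 136893065 and C1qb at 136880129 to 136886187. C1q binds antibody complexes and apoptotic cells, and its chains are made mainly by tissue macrophages. The gaps between the genes are 2852 and 3617 bases. The RefSeq promoter windows of C1qb and C1qc are shown because these neighbors varied together, and that of C1ra because its groups did not overlap. Each window runs from 250 bases before to 50 bases after the transcription start in GRCm38.p6, 5′ to 3′ on the strand of the gene. Capitals mark matches, on either strand, to GAGGAA (the core of sites for PU.1, a myeloid transcription factor), TTCNNNGAA (the GAS site of STAT factors) or TTGCNNAA (C/EBP).
C1qb, chr4:136886151-136886450: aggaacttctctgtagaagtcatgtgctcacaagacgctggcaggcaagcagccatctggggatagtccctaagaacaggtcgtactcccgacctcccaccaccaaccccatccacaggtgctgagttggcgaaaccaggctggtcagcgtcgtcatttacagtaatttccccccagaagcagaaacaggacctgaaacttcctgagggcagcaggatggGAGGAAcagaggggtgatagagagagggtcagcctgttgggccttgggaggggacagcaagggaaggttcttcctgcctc
C1qc, chr4:136892865-136893164: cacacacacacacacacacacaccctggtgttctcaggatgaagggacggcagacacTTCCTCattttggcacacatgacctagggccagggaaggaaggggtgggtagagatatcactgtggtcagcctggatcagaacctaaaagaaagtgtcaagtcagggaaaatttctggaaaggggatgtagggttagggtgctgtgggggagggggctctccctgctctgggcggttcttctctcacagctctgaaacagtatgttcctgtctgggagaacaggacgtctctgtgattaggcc
C1ra, chr6:124512371-124512670: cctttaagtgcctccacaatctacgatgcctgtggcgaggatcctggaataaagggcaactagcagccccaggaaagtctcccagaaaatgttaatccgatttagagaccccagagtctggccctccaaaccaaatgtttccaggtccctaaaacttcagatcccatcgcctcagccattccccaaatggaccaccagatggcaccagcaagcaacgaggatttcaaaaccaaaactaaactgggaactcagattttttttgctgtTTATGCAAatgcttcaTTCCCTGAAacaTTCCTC

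A GAGGAA match begins 30 bases before the start of C1qb and 193 bases before that of C1qc. Neither window holds a match to the other motifs. In C1ra, the matches begin 16 (C/EBP), 32 (GAS) and 44 (GAGGAA) bases after the start. They do not overlap each other. All positions count from the RefSeq start and depend on it. GENCODE M21 places the starts of C1qc and C1ra farther upstream within their windows, at 136893065 and 124512405. Of 32851 windows of the same length, 28.3% hold GAGGAA, 8.3% TTCNNNGAA and 10.8% TTGCNNAA, so that these matches are common and mark letters, not bound sites. Windows for 5 of the 9 genes were matched, and those of C1s1 and C3 are not shown.

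C1qa was at 50.1, 74.4 and 56.5 CPM in CNTR replicates 1 to 3 and at 51.9, 52.1, 47.5 and 39.7 CPM in PAMH F3 replicates 1 to 4. C1qb was at 69.9, 97.6 and 73.2 CPM in CNTR and at 80.4, 69.0, 58.2 and 60.8 CPM in PAMH F3. C1qc was at 33.3, 67.1 and 44.0 CPM in CNTR and at 35.4, 36.8, 34.0 and 27.7 CPM in PAMH F3. In all 3 genes CNTR replicate 2 was the highest library, and the groups overlapped. The mean of PAMH F3 was 0.79 times that of CNTR for C1qa, 0.84 times for C1qb and 0.70 times for C1qc. Their fitted log2 fold changes were -0.22 (standard error 0.11), -0.19 (standard error 0.15) and -0.29 (standard error 0.13). CNTR replicate 2 also had the steepest slope of expression on gene GC content, at 0.30 log2 units for each 10% of GC. The C1q genes have a GC content of 57.4% to 59.5%, above the median of 49.3% of the genes tested. Without surrogate variables the log2 fold changes of C1qa, C1qb and C1qc were -0.34, -0.26 and -0.52, and with GC offsets added to that fit they were -0.13, -0.11 and -0.36. In the fit with surrogate variables, they were -0.43, -0.34 and -0.69 without CNTR replicate 1. Without PAMH F3 replicate 3, C1qb was at -0.06.

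The chains kept similar proportions. Per kilobase, C1qa made up 35.1% to 39.1% of the C1q level across the 7 libraries, C1qb 45.8% to 52.0% and C1qc 12.9% to 17.7%. Pearson's r between the chains over the 7 libraries was 0.98 for C1qa and C1qc, 0.89 for C1qa and C1qb and 0.85 for C1qb and C1qc. The summed level of 14 macrophage markers ran from 622 to 664 CPM in CNTR and from 441 to 767 CPM in PAMH F3, and none of the 14 was at 0. The C1q genes together came to 24.6%, 38.3% and 26.2% of that sum in CNTR and to 21.9%, 28.5%, 31.7% and 23.2% in PAMH F3. Of the 14 markers, 10 had a negative and 4 a positive fitted difference, and edgeR called 0 of them at the adjusted threshold. Taken singly, the macrophage markers had an r to the mean of the 3 C1q chains between -0.29 (Mertk) and 0.90 (Laptm5). The 8 fibroblast markers had an r to that mean between -0.46 and 0.91, and their sum was highest in CNTR replicate 2, at 3564 CPM. The part of macrophage or fibroblast content in the C1q values was not tested. The genes with the highest r to the mean of the 3 chains were Zfp385a, Mrc2, Islr, Abtb2 and Nog (0.98 to 0.99).

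**Figure D2:**
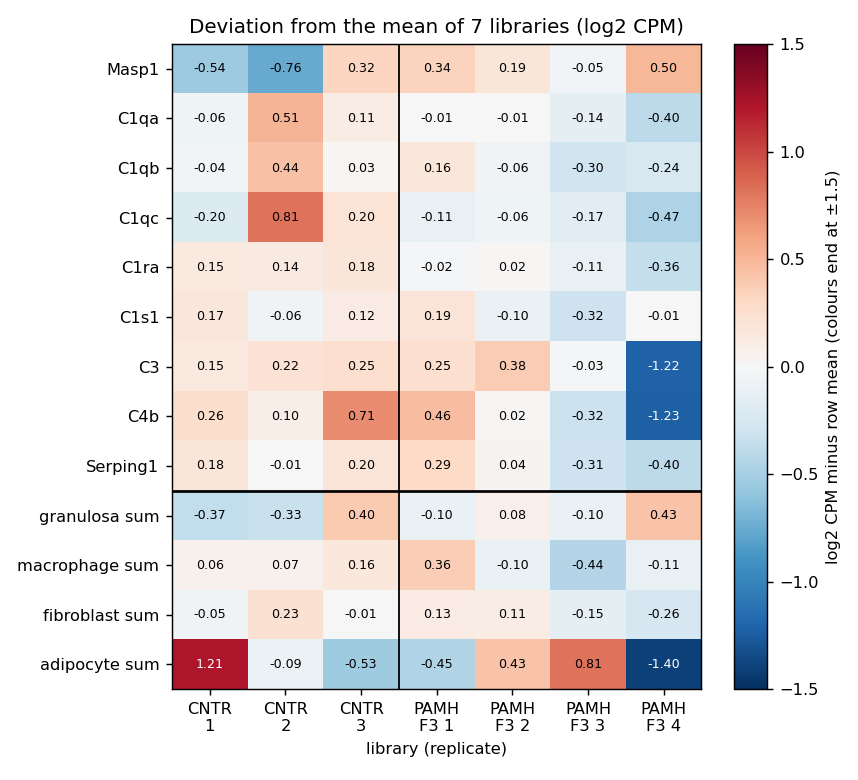
Deviation of each library from the mean of the 7 libraries, in log2 CPM, for the 9 complement genes (above the line) and for the summed markers of 4 cell types (below it), with CNTR to the left of the vertical line. The C1q genes share their highest value in CNTR replicate 2, Masp1 is lowest in CNTR replicates 1 and 2 as is the granulosa sum, and C3, C4b and the adipocyte sum are lowest in PAMH F3 replicate 4.

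C1ra (ENSMUSG00000055172, plus strand of chromosome 6, from 124512405 to 124523443) encodes the protease that cleaves C1s within the C1 complex. It was the 1 gene of the 9 whose groups did not overlap. Its level was 35.7, 35.4 and 36.4 CPM in CNTR and 31.9, 32.7, 29.8 and 25.1 CPM in PAMH F3. These levels rest on 1177 to 1186 reads in CNTR and 802 to 1124 reads in PAMH F3, at which counting error is not small beside the gap between the groups. The means were 35.9 ± 0.51 CPM (SD, n = 3) and 29.9 ± 3.37 CPM (SD, n = 4), a ratio of 0.83, and the fitted log2 fold change was -0.27 (standard error 0.10). Over all genes tested, 2.4% lay lower in every PAMH F3 library than in every CNTR library and 1.85% lay higher. Both counts are printed as the background, and nothing is read from the single gene.

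C1s1, whose product cuts C4 and C2, lies 6902 bases from C1ra on the opposite strand (124530345 to 124542359). Its level was 175, 150 and 169 CPM in CNTR and 178, 146, 125 and 155 CPM in PAMH F3. The highest and the lowest library were both PAMH F3 libraries. The means were 165 ± 13.3 CPM (SD, n = 3) and 151 ± 21.7 CPM (SD, n = 4), with a fitted log2 fold change of -0.20 (standard error 0.09), and -0.09 without CNTR replicate 1. Per kilobase of merged exons, the level of C1s1 was 4.00 to 5.86 times that of C1ra. Per kilobase of median transcript length, the mean levels over all libraries were 242 for C1s1 and 10.9 for C1ra. In the assembled C1 complex the proteases are present in equal numbers, but RNA levels do not measure protein. C1rb and C1s2 are copies of C1ra and C1s1 on the same chromosome, and only uniquely aligned reads were counted, so that the split between copies is uncertain. C1rb had between 4 and 9 reads per library, and C1s2 was at 1.35 ± 0.63 CPM across CNTR (SD, n = 3) and 1.69 ± 0.19 CPM across PAMH F3 (SD, n = 4).

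Serping1 (chromosome 2, from 84765387 to 84775444, minus strand) encodes the C1 inhibitor, which also blocks proteases of the lectin pathway. It was at 187, 163 and 188 CPM in CNTR and at 202, 170, 133 and 125 CPM in PAMH F3. PAMH F3 replicates 3 and 4 were below every CNTR library, and PAMH F3 replicate 1 was above them all. The fitted log2 fold change was -0.25 (standard error 0.17). It was -0.13 without PAMH F3 replicate 4 and -0.11 with the replicate number as a block and no surrogate variables. That block also takes PAMH F3 replicate 4 out of the group difference, because no CNTR library has its number.

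C3 (chromosome 17, from 57203970 to 57228136, minus strand) encodes the central component of the cascade. Its levels were 738, 777 and 790 CPM in CNTR and 795, 868, 650 and 287 CPM in PAMH F3. The 3 CNTR libraries were close together, and PAMH F3 replicates 1 and 2 were above all of them, whereas PAMH F3 replicate 4 stood far below. The means were 768 ± 27.1 CPM (SD, n = 3) and 650 ± 258 CPM (SD, n = 4). The fitted log2 fold change of -0.26 (standard error 0.34) became 0.03 when PAMH F3 replicate 4 was left out.

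C4b (chromosome 17, from 34728380 to 34743882, minus strand) encodes C4, the component that both the classical and the lectin pathway cut. It was at 40.2, 35.97 and 55.0 CPM in CNTR and at 46.3, 34.1, 27.0 and 14.4 CPM in PAMH F3. As in C3, PAMH F3 replicate 4 was the lowest library, and the groups overlapped. The fitted log2 fold change was -0.55 (standard error 0.38), and -0.22 without PAMH F3 replicate 4. Its near-copy C4a, 65210 bases away, was at 1.16 ± 0.04 CPM across CNTR (SD, n = 3) and 1.17 ± 0.31 CPM across PAMH F3 (SD, n = 4), and the division of reads between them is uncertain.

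PAMH F3 replicate 4 also had the least adipocyte RNA. The summed level of 8 adipocyte markers was 194 CPM in that library, 375, 690 and 900 CPM in the other PAMH F3 libraries and 1188, 482 and 355 CPM in CNTR replicates 1 to 3. All 8 markers were measured in every library, none was at 0, and all 8 had a negative fitted difference. The order of the other libraries was not that of C3, since CNTR replicate 1, with the highest adipocyte sum, had the lowest C3 of the CNTR group. Fibroblast markers, 8 genes summed, lay between 2733 and 3564 CPM in the other 6 libraries and at 2538 CPM in PAMH F3 replicate 4. The summed oviduct epithelium markers were also lowest in PAMH F3 replicate 4, with 2799 CPM. CNTR replicate 3 came next with 3202 CPM. That sum was highest in PAMH F3 replicate 3, with 6787 CPM, although C3 and C4b were below every CNTR library there. The part of adipocyte, fibroblast or oviduct epithelium content in the C3 and C4b values was not tested. Across the 7 libraries, C4b had an r of 0.91 with Serping1, 0.90 with C1ra and 0.89 with C3, and between -0.24 and 0.61 with the other 5 genes.

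Compared per kilobase of merged exons, C3 had the highest mean level of the 9 genes, at 136 CPM per kilobase over the 7 libraries. Serping1 (71.7), C1qb (66.9), C1qa (51.1), C1s1 (50.1), C1qc (20.6), C1ra (10.9), Masp1 (8.72) and C4b (6.35) followed on the same scale. The ranges of neighbors in this order overlapped across libraries, apart from C1s1 and C1qc and from C1qc and C1ra. With the median transcript length in place of merged exons, C3 kept the first and Masp1 the eighth place, C1s1 went from the fifth to the second place and C4b from the ninth to the sixth.

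**Figure D3:**
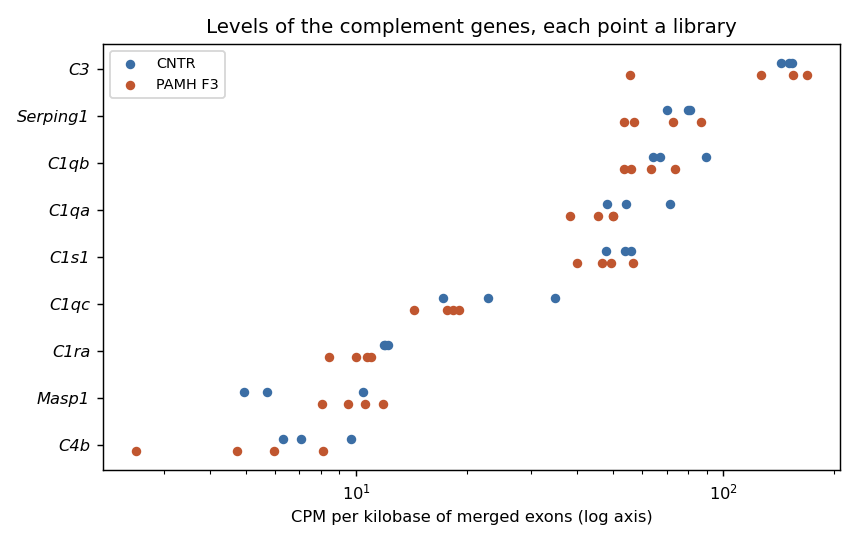
Level of each of the 9 genes in CPM per kilobase of merged exons on a log axis, with a point for each library, blue for CNTR and orange for PAMH F3. C3 leads with a mean of 136, and C1ra, Masp1 and C4b form the lower end with means of 10.9, 8.72 and 6.35.

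Complement genes outside the 9 were tested in 4 lists that hold 45 genes, of which 35 passed the filter on low counts. By edgeR's test with Benjamini-Hochberg adjustment over all genes, 0 of the 35 were called, with adjusted p values from 0.365 to 0.998. The test called 0% of all genes tested, so that this count does not set the 35 apart. At an unadjusted p under 0.05 there was 1 gene, Csmd1, against 7.64% of all genes tested, and DESeq2 called the same gene with an adjusted p of 0.0239. The fitted difference was positive for 19 and negative for 16, with a median log2 fold change of 0.01. The groups overlapped for all 35 genes. Over all genes tested, 2.4% lay lower in every PAMH F3 library than in every CNTR library and 1.85% lay higher. Nothing is read from the count among the 35.

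Among the further genes of the classical and lectin pathways, 8 of 12 were tested, 3 with a positive and 5 with a negative difference. C2, the partner of C4 in the C3-cleaving enzyme, was at 42.2 ± 5.67 CPM across CNTR (SD, n = 3) and 37.6 ± 4.59 CPM across PAMH F3 (SD, n = 4). Among the alternative and terminal pathway genes, 8 of 10 were tested, 5 with a positive and 3 with a negative difference. Cfd, the gene of factor D or adipsin, an adipocyte product, was at 321, 205 and 95.7 CPM in CNTR and at 74.2, 193, 242 and 34.2 CPM in PAMH F3, an edgeR adjusted p of 0.653. Its highest and lowest libraries were those with the highest and the lowest adipocyte sum. Hc, the gene of C5, had the highest fitted log2 fold change of the 35 genes, at 1.04 (standard error 0.49, edgeR adjusted p = 0.684), from levels of 3.95, 9.63 and 2.79 CPM in CNTR and 12.7, 11.4, 5.44 and 6.93 CPM in PAMH F3.

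Of 15 regulators, 12 were tested, 9 with a positive and 3 with a negative difference. Clu, the gene of clusterin, which blocks the terminal complex, had the highest level per kilobase of all complement genes tested. It was at 1237 ± 103 CPM across CNTR (SD, n = 3) and 1324 ± 188 CPM across PAMH F3 (SD, n = 4), and its edgeR adjusted p was 0.871.

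Csmd1 encodes a membrane protein with complement control domains. Its levels were 21.3, 28.4 and 48.7 CPM in CNTR and 36.3, 35.3, 29.6 and 49.1 CPM in PAMH F3. As in Masp1, CNTR replicates 1 and 2 were low and CNTR replicate 3 was close to the top of PAMH F3. The fit gave it a log2 difference of 0.36 with a standard error of 0.06 and an edgeR adjusted p of 0.365. Without CNTR replicate 1 the difference was -0.03. In 14 of 15 alternative fits it kept its positive sign, with values up to 0.49. Of 8 receptors, 7 were tested, 2 with a positive and 5 with a negative difference. C3ar1, the receptor gene for the C3a fragment, was at 12.6 ± 0.87 CPM across CNTR (SD, n = 3) and 13.0 ± 2.68 CPM across PAMH F3 (SD, n = 4), and edgeR's adjusted p values of the receptors were 0.822 or higher.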

How the data were processed

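Ovarian RNA was sequenced as single reads in 3 CNTR and 4 PAMH F3 libraries. The authors mapped the reads to mm10 with STAR 2.5.3a and used HTSeq 0.6.1p1 (union mode) to count, per Ensembl gene, the reads that aligned to a single place. The deposited values are raw counts per gene and library, and the lines of unassigned reads were left out. Reads aligned to several places made up 37.7% to 40.7% of all alignments, which lowers near-identical genes. Of 55487 identifiers, 55394 were named through GENCODE M21.

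Counts were scaled by TMM over all gene rows. The 18779 genes kept by filterByExpr (minimum count 10) went into quasi-likelihood F tests (edgeR 4.0.16, R 4.3.3). The model held the group and 2 surrogate variables (svaseq in sva 3.50.0), as the authors put sva variables into theirs. The standard error is the log2 fold change divided by the square root of F. DESeq2 1.42.0 was an alternative. P values set the group difference against the spread between libraries that the surrogate variables leave. That spread may be technical.

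The 9 genes and all lists were chosen with earlier results of these data known. Named genes are the 9, their paralogs, other complement genes with an unadjusted p under 0.05 or among the 5 highest levels, the 5 genes most like each pattern and the neighbors of Masp1. A gene that this rule names is not reported here. Colec10, Colec11, Mbl1, Fcnb, C2, Hc, C3ar1, Mbl2, Fcna, Inhba, Amh, Foxl2, Mertk, Laptm5, Rtp4 and Gm45338 were named after their values were seen. Promoter windows are from RefSeq (GRCm38.p6). GC content was taken from the longest transcript.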

Additional observations from a re-analysis of the deposited data

How the results depend on the processing

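The log2 fold changes of the 9 genes were recomputed under 15 alternatives. Masp1 stayed positive in all 15, from 0.46 without CNTR replicate 2 to 0.76 without CNTR replicate 3. The other 8 genes stayed negative in all 15, apart from C3, which was at 0.03 without PAMH F3 replicate 4. Some of the negative values were smaller than their standard errors. C3 was at -0.0047 (standard error 0.14) with the replicate block and at -0.04 (standard error 0.30) without CNTR replicate 3. C1qb was at -0.06 (standard error 0.12) without PAMH F3 replicate 3. In contrast, C1qc was at -0.69 (standard error 0.11) without CNTR replicate 1, which exceeds its standard error. The number of all genes called was 0 with 0, 1 or 3 surrogate variables, median-ratio size factors or GC offsets, 101 with DESeq2's Wald test and 8 without a filter on low counts. Leaving out 1 library gave between 0 and 39 calls, with 39 when CNTR replicate 1 and 37 when PAMH F3 replicate 1 was omitted and 0 in the other cases. Of the 35 other complement genes, DESeq2 called 1, Csmd1, and each other alternative called 0. Across its alternatives, the adjusted p of Csmd1 ran from 0.0239 to 1.

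Whether replicate numbers pair the libraries could not be decided. Deviations from the group means correlated at 0.10, 0.10 and -0.25 for numbers 1, 2 and 3. CNTR replicate 1 correlated best with its own number, and CNTR replicates 2 and 3 correlated best with other numbers. Deviations from means of 3 and 4 libraries depend on each other, so that these values do not settle the matter. With a replicate block and no surrogate variables, edgeR called 0 genes. It had 447 at an unadjusted p under 0.05, against 741 without the block. Number 4 occurs in PAMH F3 only, so that the block takes that library out of the group difference and uses up degrees of freedom. These counts are therefore not a measure of pairing. Per kilobase, the median transcript length raised the levels of 6 of the 9 genes, to 29.2 for Masp1, 37.0 for C1qc, 242 for C1s1, 1152 for C3, 47.4 for C4b and 100.2 for Serping1. The median transcript of C3 has 608 bases against 5143 in its merged exons.

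The fits rest on 3 and 4 libraries per group and 3 residual degrees of freedom. At the 1177 to 1186 reads of C1ra in CNTR, counting error is not small beside the spread between libraries.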
